A study of Mus musculus with 12 samples.

Results

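The fatty acid elongases and desaturases described here are 9 genes, Elovl1, Elovl2, Elovl3, Elovl5, Elovl6, Fads1, Fads2, Scd1 and Scd2, picked by gene symbol from the 55487 genes of the deposited liver tables. All 9 had enough counts to be tested, among 15862 genes that did. Liver RNA came from 12 male mice aged 16 to 18 months on an ad libitum diet, 3 animals per group. The groups were knockout livers after an overnight fast, fed knockout livers, fasted control livers and fed control livers. Knockout mice were Foxo3 flox/flox and Alb-cre positive, so that deletion is aimed at hepatocytes. The labels call the knockout hepatocyte-specific, and whether other liver cells keep the gene was not tested. Controls were Foxo3 floxed and Cre-negative, so that presence of Cre and loss of Foxo3 cannot be told apart. Foxo3 encodes a forkhead transcription factor that is active when insulin signalling is low.

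Elongases add a carbon pair to fatty acyl-CoA chains in the endoplasmic reticulum, each with its own preference for chain length and saturation. Desaturases place double bonds in such chains, with electrons that pass from a reductase through cytochrome b5. Elovl6 and the stearoyl-CoA desaturases Scd1 and Scd2 turn newly made palmitate into stearate, palmitoleate and oleate. Fads2, Elovl5, Fads1 and Elovl2 act in turn on dietary linoleic and alpha-linolenic acid to give arachidonic acid and docosahexaenoic acid. In liver, SREBP-1c, LXR and ChREBP are known to drive many of these genes after feeding.

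In the mm10 coordinates of the deposited tables, 5 of the 9 genes lie on chromosome 19. These are Fads2 at chr19:10062765-10101746 on the minus strand, Fads1 at chr19:10182888-10196877 on the plus strand, Scd2 at chr19:44293674-44306864 on the plus strand, Scd1 at chr19:44394455-44407879 on the minus strand and Elovl3 at chr19:46131897-46135694 on the plus strand. Fads1 and Fads2 are 81141 bases apart and Scd1 and Scd2 87590 bases apart. Elovl6 lies at chr3:129532355-129638495 and Elovl1 at chr4:118428093-118432953, both on the plus strand. Elovl5 lies at chr9:77917364-77984519 on the plus strand and Elovl2 at chr13:41182381-41220405 on the minus strand.

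A stretch of the Scd1 and Scd2 coding sequences is shown because reads from the 2 genes can look alike, and Scd1 was the most and Scd2 the least abundant of the 9 genes. The lines give coding bases 499 to 693 of Scd1 and 508 to 702 of Scd2 from the GENCODE M21 transcripts, 5′ to 3′, with capitals at the 2 bases that differ in 195.
Scd1: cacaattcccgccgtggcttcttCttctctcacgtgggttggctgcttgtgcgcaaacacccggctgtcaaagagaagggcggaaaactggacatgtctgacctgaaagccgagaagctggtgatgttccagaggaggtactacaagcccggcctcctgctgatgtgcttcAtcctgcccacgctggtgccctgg
Scd2: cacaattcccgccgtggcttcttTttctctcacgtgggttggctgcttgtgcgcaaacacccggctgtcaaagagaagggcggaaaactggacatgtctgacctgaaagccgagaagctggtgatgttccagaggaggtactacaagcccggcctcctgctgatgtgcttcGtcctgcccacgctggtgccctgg
Over their whole coding sequences Scd1 and Scd2 were 90.7% identical, with a longest shared run of 147 bases. Of the 50-base words of the Scd1 transcript, 3.03% also occur in that of Scd2. Fads1 and Fads2 were 69.4% identical with no shared run above 17 bases, and the pairs formed by the 5 elongases ranged from 62.8% to 68.1% identity. How reads that match several genes were counted is not given in the sources used here, so that the Scd2 counts are uncertain.

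The stretch shown next lies upstream of Elovl6 and holds the forkhead motif GTAAACA in capitals. It was chosen because it holds the only match to that motif among the member promoters searched. It covers chr3:129532223-129532309 on the plus strand of GRCm38.p6 in the RefSeq promoter table, and the motif starts 123 bases before the RefSeq gene start.
Elovl6: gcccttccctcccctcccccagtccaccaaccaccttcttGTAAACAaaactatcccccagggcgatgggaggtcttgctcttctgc
The table held 7 promoters of 5 members, Elovl1, Elovl2, Elovl5, Elovl6 and Fads2, each from 250 bases before to 50 bases after the gene start. GTAAACA, searched on both strands, was in 1 of the 7 and in 3.65% of all 32851 promoters. The sterol regulatory element TCACNCCAC was in 0 of the 7 and in 408 of all 32851. The nuclear receptor repeats DR4 and DR1 were in 0 of the 7 and in 0.0152% and 0.0396% of all promoters. CCAAT, the NF-Y box, was in 2 of the 7 and 37.4% of all, the E-box CACGTG in 1 and 7.15%, and the GC box GGGCGG in 4 and 35.7%. A match describes letters in a window and not a bound site.

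Library totals ranged from 17520058 to 22414976 counts. Levels are given as deposited TPM, which is scaled for gene length, and changes as log2 fold changes of the raw counts with the standard error (SE) and a p-value of the edgeR quasi-likelihood test adjusted over 15862 genes. A gene is said to have risen or fallen where the adjusted p was below 0.05. The p-values rest on the spread between animals within groups of 3, with an estimate that all 4 groups share. A contrast within a genotype or feeding state can therefore change when a library outside it is left out. Summed TPM of the hepatocyte markers Alb, Apoa1, Ttr and Serpina1c was between 65400 and 114000 in all libraries. Foxo3 was not lower in the libraries labelled knockout, at 15.6, 17.5 and 16.6 TPM against 15.2, 11.9 and 12.8 TPM in fasted controls, and at 18.5, 19.4 and 20.2 TPM against 14.4, 13.6 and 19.2 TPM in fed controls. In counts, Foxo3 was higher in knockouts by 0.328 on the log2 scale in fasted and by 0.362 in fed livers. Each had an unadjusted p below 0.05 by edgeR and neither passed the adjusted threshold. A gene-level count does not check the deletion, since no label says which exons are floxed. No batch is labelled and the animal numbers in the tables run in blocks by group, so that cohort or day cannot be told apart from genotype or feeding.

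Fed control replicate 3 stood apart. In this library 7 of the 9 members exceeded the mean of the other fed controls (median over the 9 of 0.56 on the log2 scale). All 5 T and NK cell markers were above as well (median 2.67), as were all 5 stellate and fibroblast markers (1.5) and all 6 macrophage markers (0.87), and all 4 hepatocyte markers were below (−0.45). All 5 endothelial markers (0.68) and all 4 compared cholangiocyte markers (0.72) were above too. Of 12 compared male-biased genes 9 were below (median −0.99), and of 8 compared female-biased genes 6 were above (0.69). Summed TPM over the T and NK cell markers, none of which was at 0 in any library, ranged from 1.6 to 3.73 in fasted knockout, 2.43 to 4.29 in fed knockout, 5.17 to 8.61 in fasted control and 1.64 to 15.5 in fed control livers. In the same order of groups, the stellate and fibroblast sum was 48.4 to 114, 47.9 to 96.9, 53.4 to 89.9 and 84.6 to 232 TPM, and the macrophage sum 383 to 457, 385 to 752, 333 to 895 and 384 to 856 TPM, with no marker at 0. Some results that rest on this library are given with and without it, and others only with all 12 libraries. The part of these markers in the results was not tested.

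Scd1 had the highest TPM of the 9 genes and Scd2 the lowest in all 12 libraries. Over all libraries Scd1 averaged 8230 TPM, followed by Elovl5 at 537, Fads2 at 522, Elovl2 at 361 and Fads1 at 295 TPM. Elovl6 at 72.5, Elovl3 at 71.9 and Elovl1 at 30.0 TPM came next, and Scd2 averaged 6.19 TPM. Ranges over libraries overlapped between neighbours in this order from Elovl5 to Elovl1. Scd1, from 1634 to 19700 TPM, was above the highest Elovl5 library at 978 TPM. Elovl1 overlapped Scd2, from 18.6 to 47.9 TPM for Elovl1 against 1.54 to 21.2 TPM for Scd2.

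**Figure D1:**
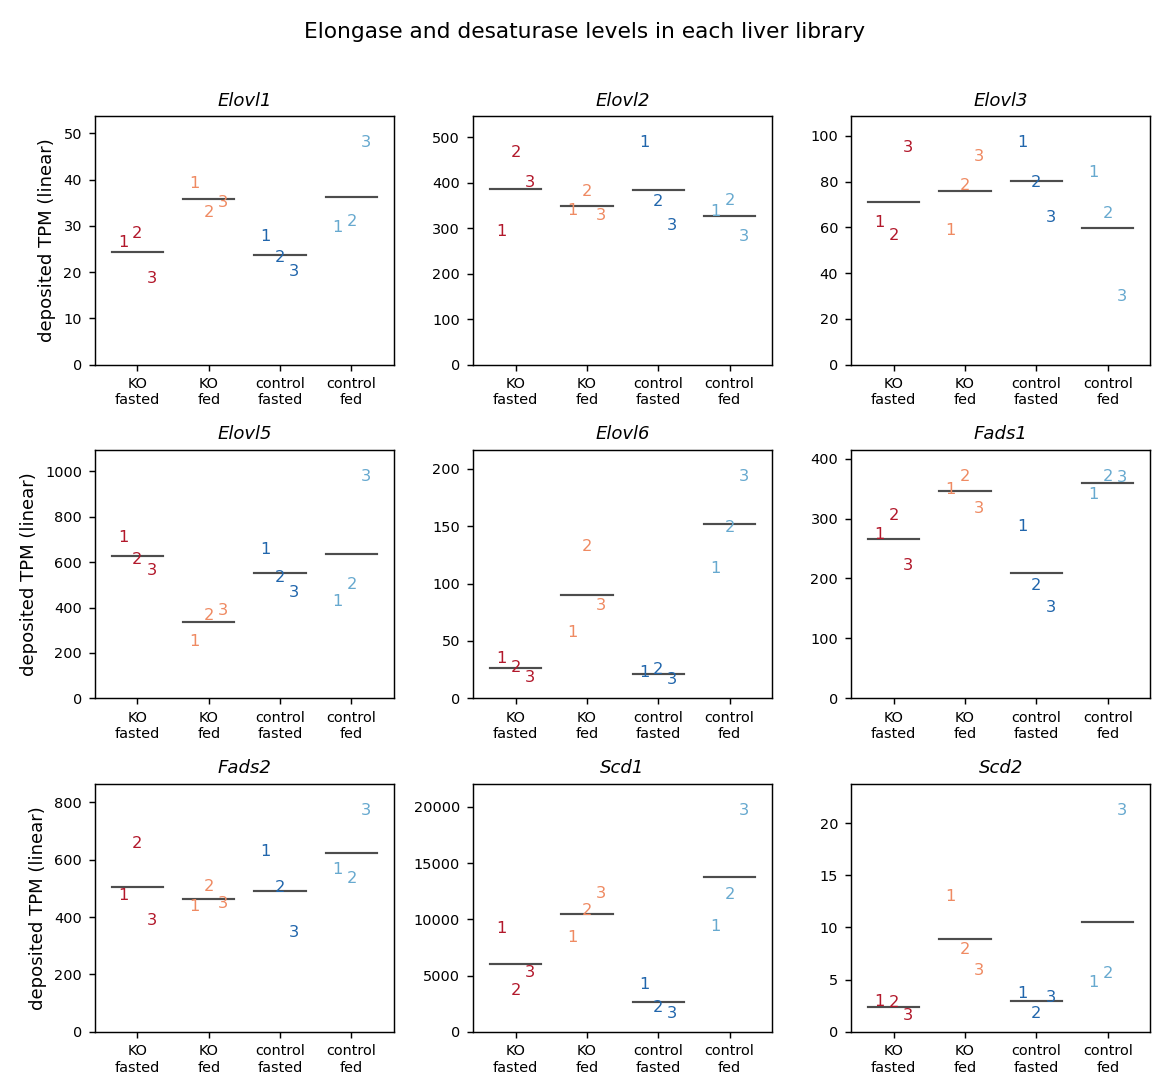
Deposited TPM of the 9 genes on a linear scale, 1 panel per gene. Digits are replicate numbers, bars are means of 3 livers, and groups run from fasted knockout at the left to fed control at the right. Elovl6 was between 16.3 and 34.5 TPM in the 6 fasted livers and between 57.6 and 193 TPM in the 6 fed livers.

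Fasting was the contrast in which the family changed. Averaged over both genotypes, Elovl6, Scd1, Scd2, Fads1 and Elovl1 fell in fasted livers and none of the 9 rose. Elovl2, Elovl3, Elovl5 and Fads2 did not pass. The 5 of 9 called stand beside 9.07% of all tested genes, of which 721 rose and 717 fell. The median log2 fold change of the 9 was −0.56, against −0.01 for all tested genes. In a bulk sample, fewer cells of a type and less RNA per cell cannot be told apart.

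Elovl6 elongates palmitoyl-CoA to stearoyl-CoA and had the largest change of the 9 over both genotypes and in controls. In knockout livers it stood at 34.5, 27.0 and 18.2 TPM after fasting, against 57.6, 132 and 81.2 TPM fed. In control livers it stood at 22.4, 24.6 and 16.3 TPM after fasting, against 113, 149 and 193 TPM fed. Fasted and fed livers did not overlap in either genotype, and the highest fasted liver of the 6 was below the lowest fed one. Elovl6 fell 4.86-fold over both genotypes (log2 −2.28, SE 0.222, adjusted p = 0.000169), with a log2 change of −1.78 in knockouts (SE 0.309, adjusted p = 0.0164) and −2.78 in controls (SE 0.321, adjusted p = 0.00168). The knockout value lost its call without fasted knockout replicate 2 (adjusted p = 0.051) or replicate 3 (adjusted p = 0.0601) and without the filter on low counts (adjusted p = 0.0539).

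Scd1 encodes the main stearoyl-CoA desaturase of adult liver, which makes oleate and palmitoleate. It stood at 9148, 3632 and 5279 TPM in fasted and 8355, 10790 and 12290 TPM in fed knockout livers. In controls it stood at 4227, 2150 and 1634 TPM fasted and 9357, 12240 and 19700 TPM fed. The control groups were apart, while fasted knockout replicate 1 lay above fed knockout replicate 1. Scd1 fell 2.95-fold over both genotypes (log2 −1.56, SE 0.267, adjusted p = 0.00346) and 4.96-fold in controls (log2 −2.31, SE 0.387, adjusted p = 0.00769). In knockouts the log2 difference was −0.81 with a 95% interval of −1.62 to −0.01 and an adjusted p of 0.335.

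Scd2, best known as the stearoyl-CoA desaturase of brain and of the newborn liver, was low throughout. It stood at 2.86, 2.83 and 1.54 TPM in fasted and 13.0, 7.94 and 5.84 TPM in fed knockout livers, and at 3.68, 1.77 and 3.27 TPM in fasted and 4.76, 5.55 and 21.2 TPM in fed control livers. All fasted livers were below all fed livers of their genotype. Scd2 fell 3.55-fold over both genotypes (log2 −1.83, SE 0.378, adjusted p = 0.0156). The change was −1.91 in knockouts (adjusted p = 0.115) and −1.75 in controls (adjusted p = 0.107), where it was −0.91 without fed control replicate 3 (adjusted p = 0.253). Without that library the knockout value passed (log2 −1.90, adjusted p = 0.0164). Of 5 fat cell markers, 2 were tested over both genotypes: Cfd fell (log2 −2.22, adjusted p = 0.0382) and Fabp4 did not pass. At an unadjusted p below 0.05 the counts were 0 of 2 in knockouts and 2 of 2 in controls, beside 14.6% and 19.4% of all tested genes. Adipoq was at 0 in 7 libraries, Plin1 in 11 and Lep in all 12. Cfd reached 63.2 TPM, Fabp4 8.61 TPM and Adipoq 0.368 TPM. The summed TPM of the 5 markers was 3.83 to 15.2 in fasted knockout, 11.3 to 41.6 in fed knockout, 3.76 to 12.1 in fasted control and 29.7 to 65.5 in fed control livers. The part of these markers in the Scd2 result was not tested.

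Fads1 introduces the last double bond on the way to arachidonic and eicosapentaenoic acid. In knockouts it stood at 274, 304.5 and 221 TPM fasted and 349, 370.2 and 317 TPM fed. In controls it stood at 287.5, 189 and 151 TPM fasted and 340.2, 370.2 and 369 TPM fed. The fasted livers were below the fed livers in both genotypes, with no overlap. Fads1 fell over both genotypes (log2 −0.57, SE 0.139, adjusted p = 0.021) and in controls (log2 −0.76, SE 0.196, adjusted p = 0.0487), and its knockout value was −0.39 (adjusted p = 0.391). Both calls were near the threshold: leaving out 1 library at a time, the control call held only without fasted control replicate 1 (adjusted p = 0.0147) or fed control replicate 3 (0.0491) and was lost in the other 10 fits. The call over both genotypes was lost without fasted knockout replicate 3, fed knockout replicate 1 or 2, fasted control replicate 2 or fed control replicate 2 (adjusted p of at most 0.0577).

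Elovl1 elongates saturated chains to the lengths used in ceramides. It stood at 26.3, 28.4 and 18.6 TPM in fasted and 39.2, 32.9 and 35.1 TPM in fed knockout livers. In controls it stood at 27.8, 23.2 and 20.2 TPM fasted and 29.7, 30.9 and 47.9 TPM fed. Fasted livers were again all below fed livers of their genotype. Elovl1 fell 1.47-fold over both genotypes (log2 −0.56, SE 0.115, adjusted p = 0.00925), with near-equal values in knockouts (−0.57, adjusted p = 0.10) and controls (−0.55, adjusted p = 0.0823), neither past the threshold alone.

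Elovl5 extends the polyunsaturated chains made by Fads2 and was the only one of the 9 with every fasted liver above every fed liver, in knockouts. It stood at 709, 613 and 562 TPM in fasted knockout livers, against 249, 366 and 388 TPM in fed ones. In controls it stood at 657, 532 and 465 TPM fasted and 426, 502 and 977.5 TPM fed, where the groups overlapped. The knockout log2 difference was 0.90 (SE 0.228, 95% interval 0.41 to 1.40), with an adjusted p of 0.0582 by edgeR and 0.00275 by DESeq2. It also passed without the filter on low counts (adjusted p = 0.0489) and without fed control replicate 1 (0.0435) or 3 (0.012). In controls the value was −0.13 (adjusted p = 0.812) and 0.18 without fed control replicate 3 (adjusted p = 0.695), and over both genotypes it was 0.39 (adjusted p = 0.16) and 0.54 without that library (adjusted p = 0.018).

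Fads2 carries out the first, rate-limiting desaturation of linoleic and alpha-linolenic acid. It stood at 474, 656 and 390 TPM in fasted and 438, 508 and 446 TPM in fed knockout livers, and at 627, 502 and 347 TPM in fasted and 567, 535 and 773 TPM in fed control livers. Fasted and fed livers overlapped in both genotypes, and the log2 difference over both was −0.09 with a 95% interval of −0.41 to 0.23 (adjusted p = 0.769). Elovl2, which makes the longest polyunsaturated chains on the way to docosahexaenoic acid, stood at 293.5, 466 and 401 TPM in fasted and 339, 381 and 327 TPM in fed knockout livers. In controls it stood at 487, 358 and 306 TPM fasted and 336, 360 and 282 TPM fed. These groups overlapped too, and the difference over both genotypes was 0.20 with an interval of −0.14 to 0.53 (adjusted p = 0.482).

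Elovl3 elongates saturated and monounsaturated chains and is known in mouse liver for higher levels in males and a daily rhythm. It stood at 62.2, 56.6 and 95.1 TPM in fasted and 58.8, 78.2 and 91.2 TPM in fed knockout livers, and at 96.9, 79.6 and 64.3 TPM in fasted and 84.0, 66.1 and 29.7 TPM in fed control livers. All groups overlapped, and the difference over both genotypes was 0.16 with an interval of −0.47 to 0.79 (adjusted p = 0.784). It was −0.03 without fed control replicate 3, the library with the lowest Elovl3. Of 12 tested male-biased liver genes, 4 fell over both genotypes, among them Nudt7 (log2 −1.59, adjusted p = 0.0010) and Hsd3b5 (−5.78, adjusted p = 0.0091). Within knockouts 4 of the 12 fell (median log2 −1.55) and within controls 1 (median −0.135). Of 11 tested female-biased genes 4 rose over both genotypes, among them Cyp4a14 (3.98, adjusted p = 0.000263), with 3 higher in knockouts and 2 in controls. All-gene shares called were 9.07% over both genotypes, 2.48% in knockouts and 4.14% in controls. Summed male-biased TPM was 2010 to 4450 in fasted knockout, 10200 to 21200 in fed knockout, 5330 to 11900 in fasted control and 3280 to 7730 in fed control livers, with Moxd1 at 0 in 8 libraries. Much of that sum was Serpina1e, averaging 403, 7930, 2230 and 1920 TPM in the same order of groups. Mup20 likewise averaged 1690, 4490, 4610 and 2180 TPM. Summed female-biased TPM was 1150 to 2700 in fasted knockout, 66.2 to 123 in fed knockout, 2090 to 5700 in fasted control and 303 to 765 in fed control livers, with Cyp3a41a, Sult3a1 and Sult2a1 at 0 in 6, 4 and 9 libraries. Most of that sum was Cyp4a14, averaging 1870, 73, 3890 and 419 TPM in the same order, so that it largely follows 1 gene. Of 17 tested clock genes, Per1 (log2 0.70, adjusted p = 0.000723) and Hlf (0.41, adjusted p = 0.0152) rose over both genotypes and Bhlhe40 fell (−0.90, adjusted p = 5.1e-05), beside 9.07% of all tested genes called. The part of these lists in the Elovl3 values was not tested.

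**Figure D2:**
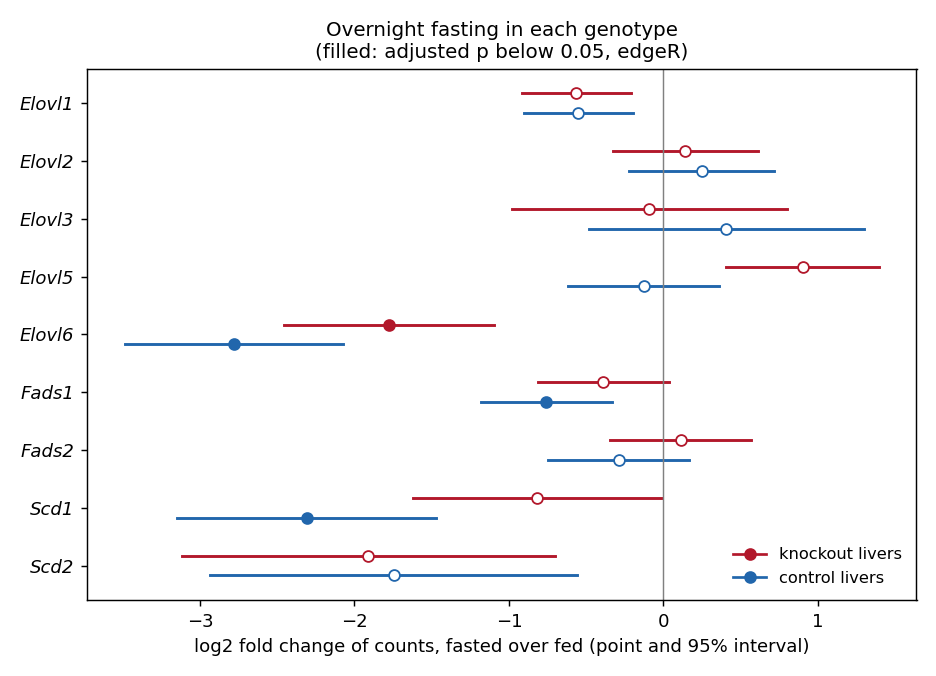
Log2 fold change of counts, fasted over fed, for the 9 genes in knockout livers (red, above) and control livers (blue, below). Points are edgeR estimates with 95% intervals, filled where the adjusted p was below 0.05. Elovl6 was called in both genotypes, at −1.78 and −2.78, and Scd1 and Fads1 in controls, while Elovl5 in knockouts lay at 0.90 and was not called.

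Within knockouts 1 of the 9 genes was called (Elovl6, lower), beside 2.48% of all tested genes, and within controls 3 (Elovl6, Scd1 and Fads1, lower), beside 4.14%. At an unadjusted p below 0.05 the counts were 5 in knockouts and 5 in controls, beside 14.6% and 19.4% of all tested genes. Without fed control replicate 3, 3 were called in knockouts (Elovl5, Elovl6 and Scd2), 3 in controls and 6 over both genotypes. The knockout count was 2 without fed control replicate 1 and 0 without fasted knockout replicate 2 or 3. Calls over all tested genes moved as well when 1 library was left out. They ranged from 88 to 573 genes in knockouts, 272 to 648 in controls and 1025 to 1425 over both genotypes. DESeq2 called 4 in knockouts (Elovl1, Elovl5, Elovl6 and Scd2) and 5 in controls (Elovl1, Elovl6, Fads1, Scd1 and Scd2). By TPM, 5 of the 9 genes were fully apart between fasted and fed livers in each genotype. These were Elovl1, Elovl6, Fads1 and Scd2 in both, Elovl5 in knockouts and Scd1 in controls, beside 22.6% of all tested genes in knockouts and 19.1% in controls.

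The make-up of the family shifted with fasting. Elovl6 made up 2.33% of the summed TPM of the 5 elongases in fasted and 9.99% in fed knockout livers, and 2.01% in fasted and 12.5% in fed control livers. Its highest fasted share was 3.06% and its lowest fed share 7.76%. Elovl5 made up 55.3% in fasted and 37.5% in fed knockout livers, and 52.2% in fasted and 50.8% in fed control livers. The log2 ratio of Elovl6 to Elovl5 TPM was between −4.95 and −4.36 in fasted and between −2.26 and −1.47 in fed knockout livers. In controls it was between −4.87 and −4.43 fasted and between −2.34 and −1.75 fed, so that the feeding states were apart in both genotypes.

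Among the 4 desaturases, Scd1 made up 87.0% of the summed TPM in fasted and 92.6% in fed knockout livers, and 78.1% in fasted and 92.9% in fed control livers. Fads1 and Fads2 act in 1 pathway, and the log2 ratio of their TPM moved with feeding. It was between −1.11 and −0.79 in fasted and between −0.49 and −0.33 in fed knockout livers. In controls it was between −1.41 and −1.12 fasted and between −1.07 and −0.53 fed. The ratio was lower in every fasted than in every fed liver of the same genotype, and these shares and ratios are descriptions with no test.

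**Figure D3:**
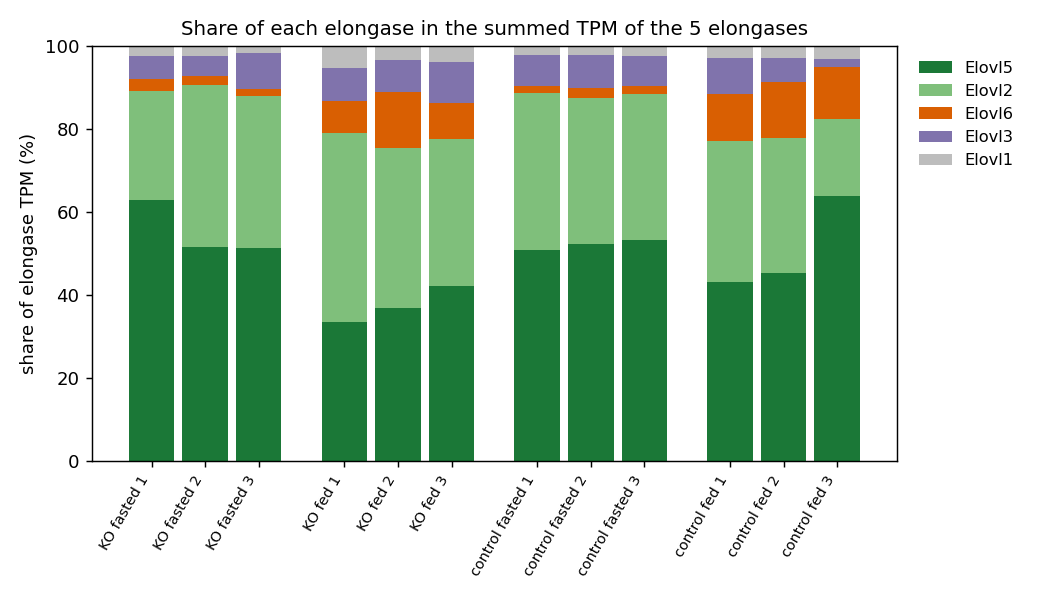
Share of each elongase in the summed TPM of the 5 elongases, 1 stacked bar per library, with fasted knockout livers at the left and fed control livers at the right. Elovl6 took at most 3.06% in fasted livers and at least 7.76% in fed livers, and Elovl5 took 63.9% in fed control replicate 3.

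None of the 9 genes passed between knockout and control livers by edgeR. The question of this contrast is whether hepatocyte Foxo3 changes these genes in either feeding state. Of all tested genes, 0.0126% were called over both states, 0.0315% in fasted livers and 0% in fed livers, where 970 genes had an unadjusted p below 0.05 and DESeq2 called 35. The fed controls serve both this contrast and that of fasting in controls. At an unadjusted p below 0.05, the counts were 0 of the 9 over both states, 1 in fasted livers (Scd1) and 2 in fed livers (Elovl5 and Elovl6), beside 7.91%, 9.01% and 6.12% of all tested genes. DESeq2 called 0 over both states, 0 in fasted livers and 1 in fed livers (Elovl5).

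Scd1 in fasted livers had the largest difference by size. Fasted knockout livers at 9148, 3632 and 5279 TPM overlapped fasted controls at 4227, 2150 and 1634 TPM, since the highest control was above the lowest knockout. The log2 difference was 1.18 (SE 0.374, 95% interval 0.37 to 1.99, unadjusted p = 0.00813, adjusted p = 0.506), and it ranged from 0.78 to 1.61 when 1 library was left out at a time. In fed livers Scd1 differed by −0.32 (95% interval −1.12 to 0.48, adjusted p = 0.95). Fads1 in fasted livers differed by 0.35 (95% interval −0.07 to 0.78, adjusted p = 0.617).

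Elovl5 in fed livers was lower in all 3 knockouts, at 249, 366 and 388 TPM, than in all 3 controls, at 426, 502 and 977.5 TPM. The log2 difference was −0.84 (SE 0.228, 95% interval −1.33 to −0.35, unadjusted p = 0.00273). Its adjusted p was 0.683 by edgeR and 0.0362 by DESeq2. Without fed control replicate 3, the highest of all libraries, the difference was −0.54 (adjusted p = 0.964 by edgeR). In fasted livers Elovl5 differed by 0.19 (95% interval −0.30 to 0.68).

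Fads2 in fed livers was likewise lower in all 3 knockouts (438, 508 and 446 TPM) than in all 3 controls (567, 535 and 773 TPM), with a log2 difference of −0.37 (SE 0.212, adjusted p = 0.84). Over all tested genes, 10.6% showed no overlap between knockout and control by TPM in fed livers, and 12.7% in fasted livers, where none of the 9 did. Elovl6 in fed livers overlapped (57.6, 132 and 81.2 TPM in knockouts, 113, 149 and 193 TPM in controls) with a difference of −0.70 (95% interval −1.36 to −0.03, adjusted p = 0.806). That difference ranged from −1.05 to −0.47 when 1 library was left out at a time. For Elovl1 and Elovl2, the intervals of both genotype contrasts lay between −0.45 and 0.59. For Elovl3 they reached from −1.05 to 1.23 and for Scd2 from −1.48 to 1.04, so that changes past 2-fold are not bounded there.

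**Figure D4:**
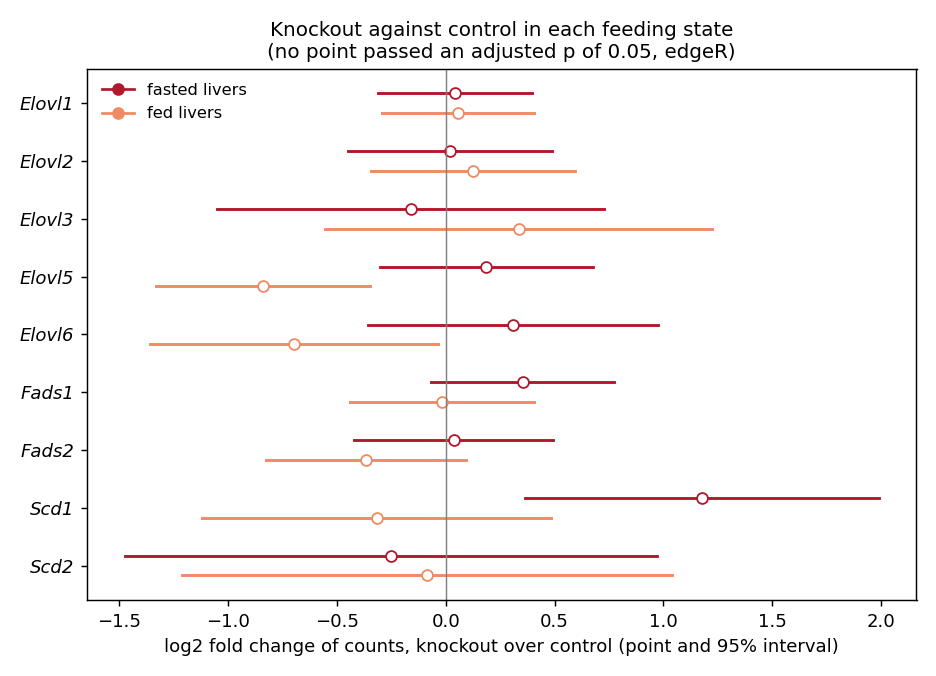
Log2 fold change of counts, knockout over control, for the 9 genes in fasted livers (red, above) and fed livers (orange, below). Points are edgeR estimates with 95% intervals and none passed the adjusted threshold. Scd1 in fasted livers lay at 1.18 and Elovl5 in fed livers at −0.84, with intervals that do not reach 0.

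The fasting change was also compared between the genotypes by its interaction. None of the 9 passed, beside 0.0063% of all tested genes, while 3 had an unadjusted p below 0.05, beside 7.19% of all tested genes, and DESeq2 called 0. For Scd1, fasting lowered counts less in knockouts than in controls by 1.495 on the log2 scale (SE 0.525, 95% interval 0.36 to 2.64, unadjusted p = 0.0143, adjusted p = 0.617). For Elovl5 the difference was 1.03 (SE 0.321, unadjusted p = 0.00697, adjusted p = 0.558), and 0.73 without fed control replicate 3. For Elovl6 it was 1.005 (SE 0.426, unadjusted p = 0.0381, adjusted p = 0.676). Leaving out 1 library at a time, the interaction ranged from 1.10 to 1.93 for Scd1 and from 0.78 to 1.36 for Elovl6. A different response of any of these genes in the 2 genotypes was therefore not shown. The median interaction of the 9 was 0.37, against −0.01 over all genes. The 3 unadjusted values come from contrasts that share all 12 libraries.

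Genes that work with the 9 were taken from lists chosen with earlier results of these data known. After Elovl has joined malonyl-CoA to the chain, Hsd17b12, the Hacd dehydratases and Tecr complete the elongation cycle. Over both genotypes, 1 of these 6 genes passed, beside 9.07% of all tested genes. Hacd3 rose in fasted livers (log2 0.49, adjusted p = 0.0010), at 225 ± 13 TPM fasted against 161 ± 4.6 TPM fed in knockouts and 239 ± 12 against 173 ± 17 TPM in controls (SD, n = 3). Hsd17b12 fell in controls (−0.47, adjusted p = 0.0293), and over both genotypes it stood at −0.26 (adjusted p = 0.0539). Tecr had −0.19 (adjusted p = 0.233).

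Of 5 listed genes of cytochromes b5 and their reductases, 2 fell over both genotypes, beside 9.07% of all tested genes called. Which of the 5 serve the desaturases was not tested. Cyb5a, the most abundant of them, did not pass and averaged 574 ± 66 TPM in fasted and 448 ± 35 TPM in fed knockout livers. In controls Cyb5a averaged 567 ± 29 TPM fasted and 509 ± 55 TPM fed (SD, n = 3). Cyb5b, a cytochrome b5, fell by 0.84 on the log2 scale (adjusted p = 0.00104) and the reductase Cyb5r3 by 0.75 (adjusted p = 0.00155). Cyb5b averaged 235 ± 16 TPM in fasted and 362 ± 49 TPM in fed knockout livers, and 187 ± 45 TPM in fasted and 398 ± 50 TPM in fed control livers (SD, n = 3). Both were called in controls (−1.05, adjusted p = 0.00583 for Cyb5b and −1.02, adjusted p = 0.00551 for Cyb5r3). In knockouts the values were −0.63 for Cyb5b (adjusted p = 0.0755) and −0.49 for Cyb5r3 (adjusted p = 0.164).

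All 7 genes that supply or remove malonyl-CoA and palmitate passed over both genotypes, 6 lower and 1 higher, beside 9.07% of all tested genes. Fasn, fatty acid synthase, fell most (log2 −3.24), followed by the acetyl-CoA carboxylases Acacb (−2.23) and Acaca (−1.57) and by Acly (−2.02), Acss2 (−1.68) and Me1 (−1.14). Their adjusted p-values were at most 0.00847. Mlycd, which breaks down malonyl-CoA, rose by 0.51 (adjusted p = 0.00135). Acacb also had the profile nearest to that of Elovl6 over the 12 libraries.

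Of 4 tested acyl-CoA synthetases, Acsl1 rose (0.89, adjusted p = 0.00396) and Acsl3 (−0.995, adjusted p = 0.0232), Acsl4 (−0.91, adjusted p = 0.00138) and Acsl5 (−0.80, adjusted p = 0.000133) fell. Of 6 peroxisomal genes that shorten very long chains, Acaa1a (0.78, adjusted p = 0.000125) and Hsd17b4 (0.52, adjusted p = 0.00509) rose. Of 5 listed acyltransferases that place acyl chains in phospholipids, Lpcat3 fell (−0.56, adjusted p = 0.00145) and Agpat3 rose (0.69, adjusted p = 0.000723). These counts of 4 of 4, 2 of 6 and 2 of 5 stand beside 9.07% of all tested genes.

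**Figure D5:**
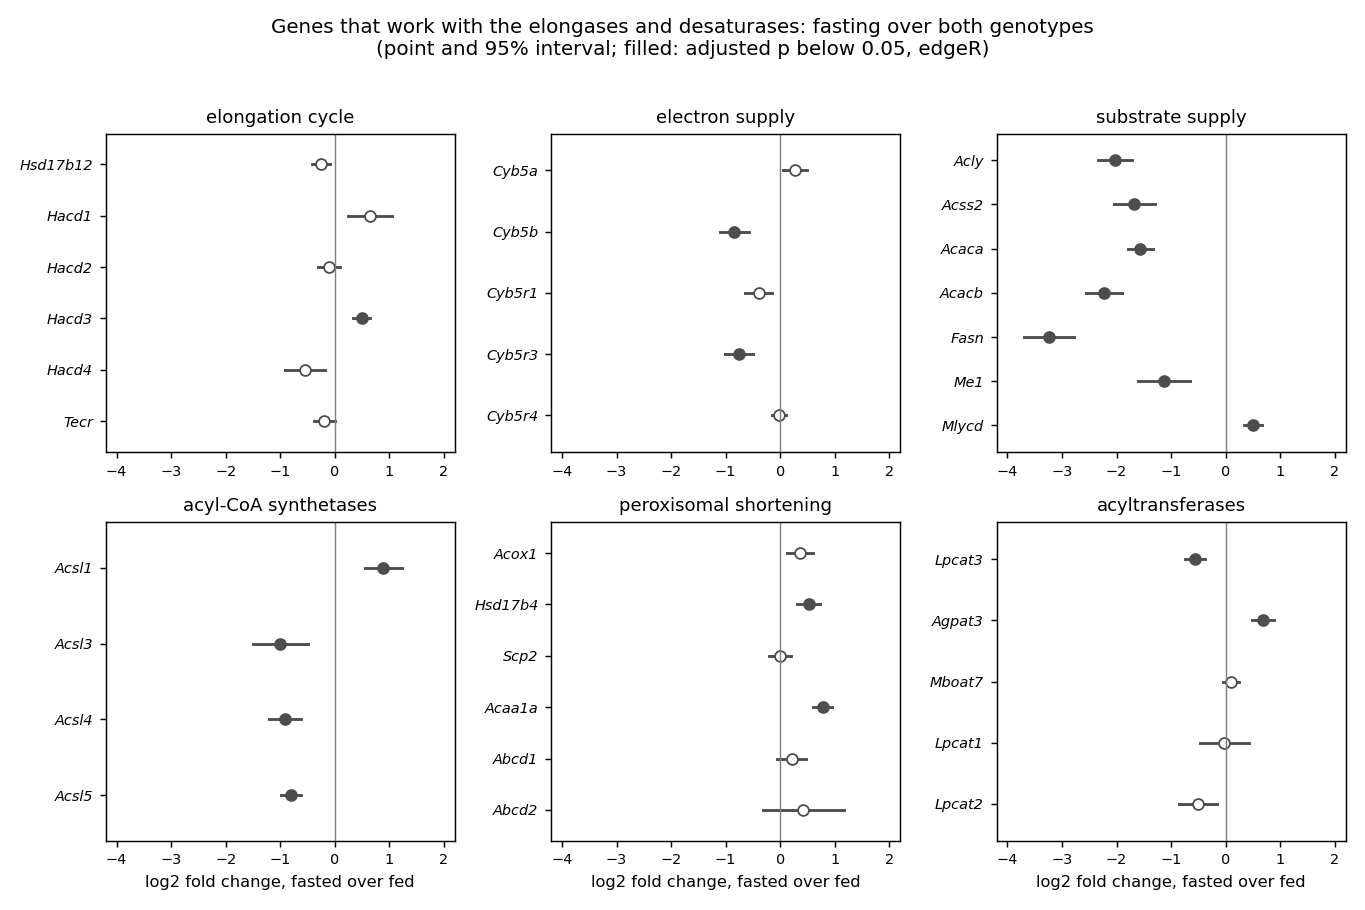
Log2 fold change, fasted over fed, over both genotypes for 6 lists of genes that work with the elongases and desaturases. Points are edgeR estimates with 95% intervals, filled where the adjusted p was below 0.05. The substrate supply genes range from −3.24 for Fasn to 0.51 for Mlycd, while 5 of the 6 elongation cycle genes were not called.

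Of 13 known regulators, 5 fell and 2 rose over both genotypes, beside 9.07% of all tested genes called. Srebf1, which encodes SREBP-1, fell by 2.27 on the log2 scale (adjusted p = 0.000273), and averaged 68.6 ± 19 TPM in fasted and 304 ± 64 TPM in fed knockout livers, and 55.7 ± 30 TPM in fasted and 286 ± 55 TPM in fed control livers (SD, n = 3). Thrsp (−3.54, adjusted p = 0.000537), Mid1ip1 (−1.76, adjusted p = 0.000921), Insig1 (−1.38, adjusted p = 0.000169) and Mlxipl, which encodes ChREBP (−0.73, adjusted p = 0.0010), also fell. Nr1h3, which encodes LXR alpha (0.27, adjusted p = 0.0239), and its partner Rxra (0.37, adjusted p = 0.0338) rose. Ppara passed in knockouts (0.56, adjusted p = 0.0361) and had −0.01 in controls (adjusted p = 0.971), with an interaction of 0.57 (adjusted p = 0.556).

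Of 3 tested other genes of the same families, none passed over both genotypes, beside 9.07% of all tested genes. Elovl4, at 0 in 10 libraries, Elovl7 and Scd4 had too few counts to be tested. Fads3 had −0.93 (adjusted p = 0.0858), Scd3 −0.95 (adjusted p = 0.133) and Fads6 −0.08 (adjusted p = 0.666). Scd3 reached no more than 0.59 TPM and is 91.5% identical to Scd1 in coding sequence, so that its counts are uncertain as well.

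Profiles most like each member were found by the root mean square difference of centred log2 CPM over the 12 libraries, among genes averaging at least 5 CPM. Elovl6, with an SD of 1.27 over libraries, was nearest to Acacb (0.29) and the water channel gene Aqp8 (0.311). Scd1 (SD 1.07) was nearest to Raet1e (0.281) and Cyp2c55 (0.443), and Scd2 (SD 1.02) to the lipase gene Lpl (0.37). Elovl1 (SD 0.349) was near to Tns3 (0.122), and Elovl5 (SD 0.462) to Impa2 (0.184) and Igsf11 (0.188). Fads1 (SD 0.411) was nearest to Nrn1 (0.149) and Man2a2 (0.158), and Fads2 (SD 0.293) to Herc3 (0.169) and Neurl2 (0.171). Elovl3 (SD 0.526) was nearest to Tspan33 (0.241) and Slc17a2 (0.245), and Elovl2 (SD 0.285) to Desi1 (0.126) and Eef2 (0.137). None of the 9 was among the nearest genes of another.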

How the data were processed

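Bulk RNA sequencing of frozen liver was done in 12 libraries with strand-specific poly(A) preparation, per the labels' protocols. Per the submitters' processing notes, bcl2fastq 2.19, Trimmomatic 0.38, HISAT2 2.1.0, featureCounts 1.6.3, DESeq2 1.24.0 and build mm10 were used, with no role or order given. The authors deposited raw counts per gene and, in a second table, TPM over the same genes, which sum to 1000000 in each library. Groups came from the sample titles.

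Counts were tested with edgeR 4.0.16 in R 4.3.3 (filterByExpr, TMM factors from 0.923 to 1.12, robust quasi-likelihood F test, 2-sided), with 1 mean per group over 12 libraries and Benjamini-Hochberg adjustment over 15862 genes in each of 7 contrasts. The threshold was an adjusted p of 0.05. On simulated counts for fasting over both genotypes, 183 of 200 genes changed 4-fold were recovered over 15862 genes. Smaller changes and the genotype and interaction contrasts were not simulated. Alternatives were RLE factors, no filter, DESeq2 1.42.0, limma-voom 3.58.1, limma on log2(TPM + 1), a replicate block and leaving out each library. Replicate columns were not copies. Same-numbered libraries did not deviate together, with correlations of −0.324 to 0.165 over 18 pairs, 3 of them over 0.1, so that no pairing was used.

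Members and gene lists were chosen with earlier results of these data known. Named genes are the 9 members, pathway genes past the threshold or else the 4 with the smallest p, up to 4 genes of other lists, and the 2 nearest profiles, of which some are not reported here. Promoters came from RefSeq and transcripts from GENCODE M21. Protein sequences were not used here.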

Additional observations from a re-analysis of the deposited data

How the results depend on the processing

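Counts of the 9 genes called were the same under RLE factors, no filter, limma-voom, limma on log2(TPM + 1) and the replicate block, to within 1.5 times, in all 7 contrasts, though without the filter the gene called for fasting in knockouts was Elovl5 in place of Elovl6. With the replicate block, which the data do not bear out as a pairing, the counts were 5 for fasting over both genotypes, 1 in knockouts and 3 in controls, and genes called over the whole table were 1086, 232 and 439, against 1438, 393 and 657 without it. DESeq2 called 4 of the 9 for fasting in knockouts, 5 in controls and 1 for knockout against control in fed livers. It called 791, 1170 and 35 genes in these contrasts over the whole table, 46 for genotype over both feeding states, 41 for genotype in fasted livers and 60 for the interaction. Leaving out 1 library at a time, the members called ranged from 4 to 6 for fasting over both genotypes, 0 to 3 in knockouts and 2 to 3 in controls, and were 0 in the genotype contrasts and the interaction. Over the whole table, calls in the 3 fasting contrasts ranged from 1025 to 1425, 88 to 573 and 272 to 648. They were at most 6 genes in any genotype contrast and at most 3 for the interaction. For fasting, directions of the 9 genes turned only in these leave-one-out fits and only for uncalled values. These were Elovl2 in knockouts (log2 −0.00138 to 0.33), Elovl3 in knockouts (−0.39 to 0.0631) and over both genotypes (−0.0267 to 0.33), Elovl5 in controls (−0.31 to 0.18), and Fads2 in knockouts (−0.11 to 0.25) and over both genotypes (−0.20 to 0.0213). The cause of these changes was not tested. Scd2 had the fewest counts of the 9 genes, 3259 over 12 libraries, followed by Elovl1 with 8026.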
